A study of Mus musculus with 13 samples.

Results

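Transcripts of 8 genes for regulators of G-protein signalling (Rgs1, Rgs2, Rgs3, Rgs10, Rgs14, Rgs16, Rgs18 and Rgs19) were followed in mature CD4 single-positive thymocytes. They are 8 of 21 annotated Rgs genes and of 35906 genes in all. The 8 genes were listed by name with their values in these comparisons already known, so their levels and differences between groups are given as descriptions, without p-values. How many of them an adjusted p under 0.1 would call is counted beside the share of all genes. These calls are also marked in a figure and followed across settings in the closing sections, and they support nothing. Tests are read only for how each gene's reads divide among its transcripts and for genes outside the list. The lists of those genes were also made with earlier results of these data known. Their counts and p-values are therefore no independent support either.

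RGS proteins end signalling by heterotrimeric G proteins. A ligand-bound receptor loads GTP onto a Gα subunit, which separates from Gβγ, and the RGS domain speeds the hydrolysis of that GTP so that the complex re-forms. In thymocytes and T cells the pathway carries chemokine and sphingosine-1-phosphate signals for migration, and several Rgs genes are known to change on lymphocyte activation.

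All mice carried the Lm54 TCR transgene, specific for the LLO peptide of Listeria bound to I-Ab, on a Rag1-/- background, so that each T cell bore 1 receptor. In CtslΔTEC mice, the protease cathepsin L was deleted by Foxn1-cre, which acts in thymic epithelial cells and leaves the Ctsl gene of the thymocytes intact. Control mice are labelled Ctsl fl/fl (WT), whereas the study writes Ctsl+/+. M2 cells (CD69-MHCI+) were sorted from 5 CtslΔTEC and 4 control mice and lysed without stimulation, and from 2 further CtslΔTEC and 2 further control mice after 4 h with plate-bound LLO:I-Ab at 1 µg/ml and soluble anti-CD28 at 250 ng/ml. Each library came from 1 mouse, and the labels give neither age nor sex. The comparisons ask how the genotype of the selecting epithelium and stimulation of the sorted cells are reflected in these genes.

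Depth was 25692380 to 39127833 estimated counts in the unstimulated libraries and 8085463 to 27184520 in the stimulated ones. T cell markers were present in every library, with summed levels of 9434 to 28239 TPM (a transcript level per length, scaled to 1 fixed total in every library), and B cell markers summed to at most 1.79 TPM. Libraries from 3 unstimulated mice (CtslΔTEC mice 2 and 5 and control mouse 2) stood apart, with Trbc2 at 22092 to 24320 TPM against 4893 to 6690 TPM elsewhere. Some results that change without them are marked below, and an unmarked result was not necessarily stable. Y-linked transcripts were high in all 5 unstimulated CtslΔTEC mice and in 1 of 4 unstimulated controls. After stimulation they were high in CtslΔTEC mouse 7 and control mouse 6 and low in CtslΔTEC mouse 6 and control mouse 5. In unstimulated cells Y-linked transcripts thus largely went with genotype, and the 2 cannot be fully told apart. This also limits the interaction terms, which use the unstimulated difference. Summed markers of CD4 CD8 double-positive (DP) thymocytes were 571 to 635 TPM in unstimulated CtslΔTEC mice against 406 to 436 TPM in controls, and 72.2 to 78.0 against 46.9 to 52.0 TPM after stimulation. Summed activation markers were 10351 to 10605 TPM in stimulated CtslΔTEC mice against 7105 to 9289 TPM in stimulated controls. Of these 8 markers 1 was called between stimulated genotypes, as lower in CtslΔTEC (12.5%, beside 13.3% of all genes). The part of DP and activation markers in the genotype differences below was not tested. File names carry 3 dates. The third date holds all 4 stimulated libraries and no other, so the date cannot be told apart from stimulation. Unstimulated libraries are labelled with no treatment, and none is labelled as cultured for 4 h without antigen. Time in culture therefore cannot be told apart from stimulation, and changes on stimulation below may include date and culture. Ctsl itself had 10.7 to 16.5 TPM in unstimulated CtslΔTEC and 5.41 to 9.03 TPM in control thymocytes (adjusted p = 0.00436, edgeR), which checks no label, because the deletion is in the epithelium. In bulk RNA, fewer cells with a transcript and less transcript per cell cannot be told apart either.

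Sequence upstream of the transcription start is shown for Rgs16, the gene with the widest change on stimulation, and for Rgs2, a gene whose groups overlapped in that contrast. RefSeq promoter entries matched 5 of the 8 genes, in 8 entries, on build GRCm38.p6. The 250 bases before the start are printed 5′ to 3′ on the gene's strand, and capitals mark matches to a CRE half-site (TGACG on either strand). Rgs16 is at chr1:153740103-153740352 on the plus strand and Rgs2 at chr1:144004150-144004399 on the minus strand.
Rgs16: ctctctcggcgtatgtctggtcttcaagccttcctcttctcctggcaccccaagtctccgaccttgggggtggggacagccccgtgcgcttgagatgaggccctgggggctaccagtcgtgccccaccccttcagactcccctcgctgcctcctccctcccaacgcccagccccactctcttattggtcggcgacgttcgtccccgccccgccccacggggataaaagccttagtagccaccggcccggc
Rgs2: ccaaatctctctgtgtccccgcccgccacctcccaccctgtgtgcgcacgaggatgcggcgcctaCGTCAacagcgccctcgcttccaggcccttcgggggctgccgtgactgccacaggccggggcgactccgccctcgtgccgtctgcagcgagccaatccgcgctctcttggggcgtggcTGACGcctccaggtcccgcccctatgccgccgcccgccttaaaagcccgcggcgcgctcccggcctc
The GC content of these windows was 66.4% for Rgs16 and 72.4% for Rgs2. The Rgs2 window held 2 CRE half-sites, starting 185 and 67 bases before the start, and such a match was present in 17.8% of 32851 promoters of the same length. None of the 4 letter patterns searched on both strands (AP-1 TGANTCA, CRE half-site TGACG, NFAT core GGAAA and E-box CANNTG) occurred in the Rgs16 or Rgs10 windows. AP-1 letters occurred in 6.75% of all promoters and in none of the 8 entries. NFAT core letters (55.6% of all promoters) occurred in 2 of 3 Rgs19 entries and 1 of 2 Rgs3 entries, and E-box letters (66.2%) in 1 of 3 and 1 of 2. These patterns can overlap one another, and a match describes letters only.

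In unstimulated M2 cells, Rgs10 was the most abundant Rgs transcript per length, with a median of 310 TPM over 9 mice. Rgs14 (median 117 TPM) and Rgs19 (113 TPM) came next and overlapped each other, followed by Rgs3 at 46.7 TPM. Rgs2 had a median of 24.9 TPM and overlapped Rgs11 (25.5 TPM), which is not one of the 8 genes. Rgs1 had a median of 1.97 TPM, and Rgs16 and Rgs18 were at or near 0. After stimulation the order was Rgs10 (210 TPM over 4 mice), Rgs19 (69.6 TPM), Rgs16 (63.8 TPM), Rgs3 (28.2 TPM), Rgs2 (24.2 TPM), Rgs14 (11.6 TPM) and Rgs1 (3.91 TPM). The ranges of Rgs19 and Rgs16, of Rgs3 and Rgs2, and of Rgs11 with both Rgs14 and Rgs1 overlapped in stimulated cells. Rgs14 thus moved from second to sixth place among the Rgs genes, and Rgs16 from near 0 to the third.

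**Figure D1:**
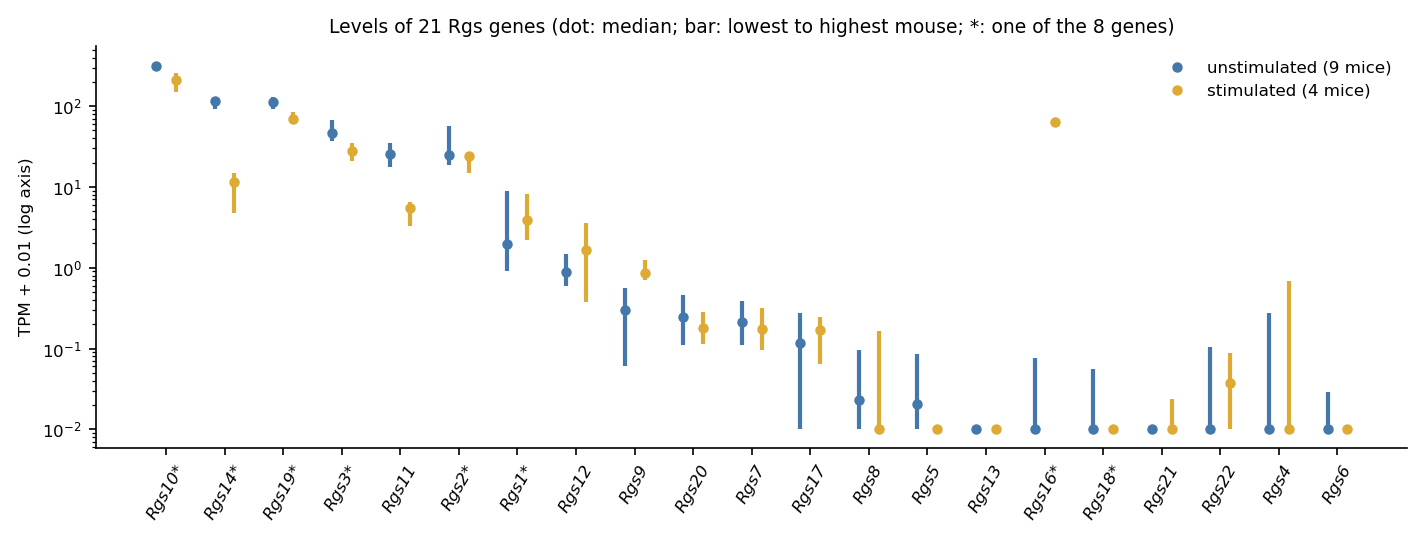
Levels of 21 Rgs genes as TPM + 0.01 on a log axis, with dots for the median and bars from the lowest to the highest mouse, for 9 unstimulated (blue) and 4 stimulated mice (yellow). Rgs16 moves from the floor of the axis to a median of 63.8 TPM, and Rgs14 from 117 to 11.6 TPM, while Rgs10 leads in both states.

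Rgs16, a GTPase-activating protein for Gαi and Gαq known as an activation-induced gene of lymphocytes, was all but absent before stimulation. It lies at chr1:153740349-153745468 on the plus strand (GRCm38) and is measured through 1 annotated transcript. Among unstimulated mice, control mice 1 to 4 had 2, 1, 0 and 4 counts, CtslΔTEC mouse 1 had 2 counts and the other CtslΔTEC mice had 0, where a count of 0 allows up to 3 counts. Stimulated control mice 5 and 6 had 57.4 and 68.9 TPM (800 and 2937 counts), and stimulated CtslΔTEC mice 6 and 7 had 65.7 and 62.0 TPM (1270 and 1711 counts). All 4 stimulated mice therefore lay far above all 9 unstimulated mice. The summed counts of control mice were at 105.95 CPM (counts scaled to library size and not to length) after stimulation against 0.0557 CPM before, a ratio of 1901 with a 95% interval of 922 to 4733. In CtslΔTEC mice the summed counts were at 104 against 0.0119 CPM, a ratio of 8746 with an interval of 2419 to 72252. These intervals cover counting error only, and they overlap because the unstimulated totals were 7 and 2 counts. After stimulation the genotypes overlapped, with a log2 difference of 0.02 ± 0.19 (SE).

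Rgs14, which joins an RGS domain to Ras-binding and GoLoco motifs and holds Gαi in its GDP form, fell the furthest. It lies at chr13:55369732-55384687 on the plus strand. Unstimulated control mice 1 to 4 had 117, 107, 130 and 123 TPM, and CtslΔTEC mice 1 to 5 had 124, 93.3, 117.7, 112 and 96.6 TPM. Stimulated control mice 5 and 6 had 13.8 and 14.7 TPM, and CtslΔTEC mice 6 and 7 had 4.72 and 9.40 TPM, from 92 to 607 counts. Stimulated and unstimulated mice did not overlap, and among stimulated mice both CtslΔTEC values lay below both control values. On the edgeR scale Rgs14 was 7.93-fold lower after stimulation in control cells (log2 fold change -2.99 ± 0.19, SE) and 13.6-fold lower in CtslΔTEC cells (-3.76 ± 0.20). The genotype difference was -0.19 ± 0.08 in unstimulated cells, where the groups overlapped, and -0.97 ± 0.21 in stimulated cells. The stimulated value was -0.61 without CtslΔTEC mouse 6 and -1.52 without mouse 7. Within the second date alone the unstimulated value was -0.24 ± 0.08. The lowest unstimulated Rgs14 value of each genotype came from a library with high Trbc2.

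Rgs10, a small RGS protein of immune cells that acts on Gαi, differed by genotype in stimulated cells. It lies at chr7:128373621-128418758 on the minus strand. Stimulated CtslΔTEC mice 6 and 7 had 149 and 170 TPM (712 and 1068 counts), against 250.0 and 256 TPM in control mice 5 and 6 (915 and 2674 counts). The 2 groups did not overlap, and the difference was 1.70-fold (log2 fold change -0.77 ± 0.13). The change on stimulation was -0.08 ± 0.11 in control cells and -0.88 ± 0.11 in CtslΔTEC cells. In unstimulated cells, CtslΔTEC mice 1 to 5 had 310, 328, 314, 315 and 335 TPM, all above control mice 1 to 4 at 269, 305, 276 and 299 TPM. This separation did not appear in CPM, where the genotypes overlapped with a log2 difference of 0.04 ± 0.08. A short non-coding transcript, Rgs10-203, received 14 to 41 counts and 22.9 to 56.3 TPM in unstimulated libraries, with means of 43.5 TPM in CtslΔTEC and 28.5 TPM in control mice. The coding transcript Rgs10-201 held 96.6% to 98.9% of the unstimulated counts, and its levels of 250 to 271 TPM in CtslΔTEC (mean 258.5) and 227 to 269 TPM in control mice (mean 248.6) overlapped.

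Rgs3, a family of long and short proteins acting on Gαi and Gαq, differed by genotype before stimulation. It lies at chr4:62559847-62704001 on the plus strand. Unstimulated CtslΔTEC mice 1 to 5 had 45.1, 37.0, 46.5, 46.7 and 40.4 TPM, and control mice 1 to 4 had 56.4, 56.7, 68.1 and 55.0 TPM. All 5 CtslΔTEC values lay below all 4 control values, by 1.34-fold (log2 fold change -0.42 ± 0.07). Stimulated control mice 5 and 6 had 21.2 and 29.7 TPM and CtslΔTEC mice 6 and 7 had 35.1 and 26.6 TPM, so the genotypes overlapped (0.12 ± 0.13). The change on stimulation was -0.95 ± 0.12 in control and -0.41 ± 0.11 in CtslΔTEC cells, and the CtslΔTEC value was -0.62 without stimulated mouse 6 and -0.26 without mouse 7.

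Rgs19, known as GAIP, a membrane-anchored regulator of Gαi3, was measured at chr2:181688419-181693977 on the minus strand. Unstimulated CtslΔTEC mice 1 to 5 had 119, 93.1, 113, 105 and 99.9 TPM and control mice 1 to 4 had 115, 113, 129 and 132 TPM. The genotypes overlapped, and the log2 difference was -0.23 ± 0.07, or -0.22 ± 0.10 without the 3 high-Trbc2 libraries. Stimulated mice had 67.8 and 85.7 TPM (controls) and 67.1 and 71.4 TPM (CtslΔTEC), all below the 9 unstimulated mice. The change was -0.59 ± 0.10 in control and -0.48 ± 0.10 in CtslΔTEC cells.

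**Figure D2:**
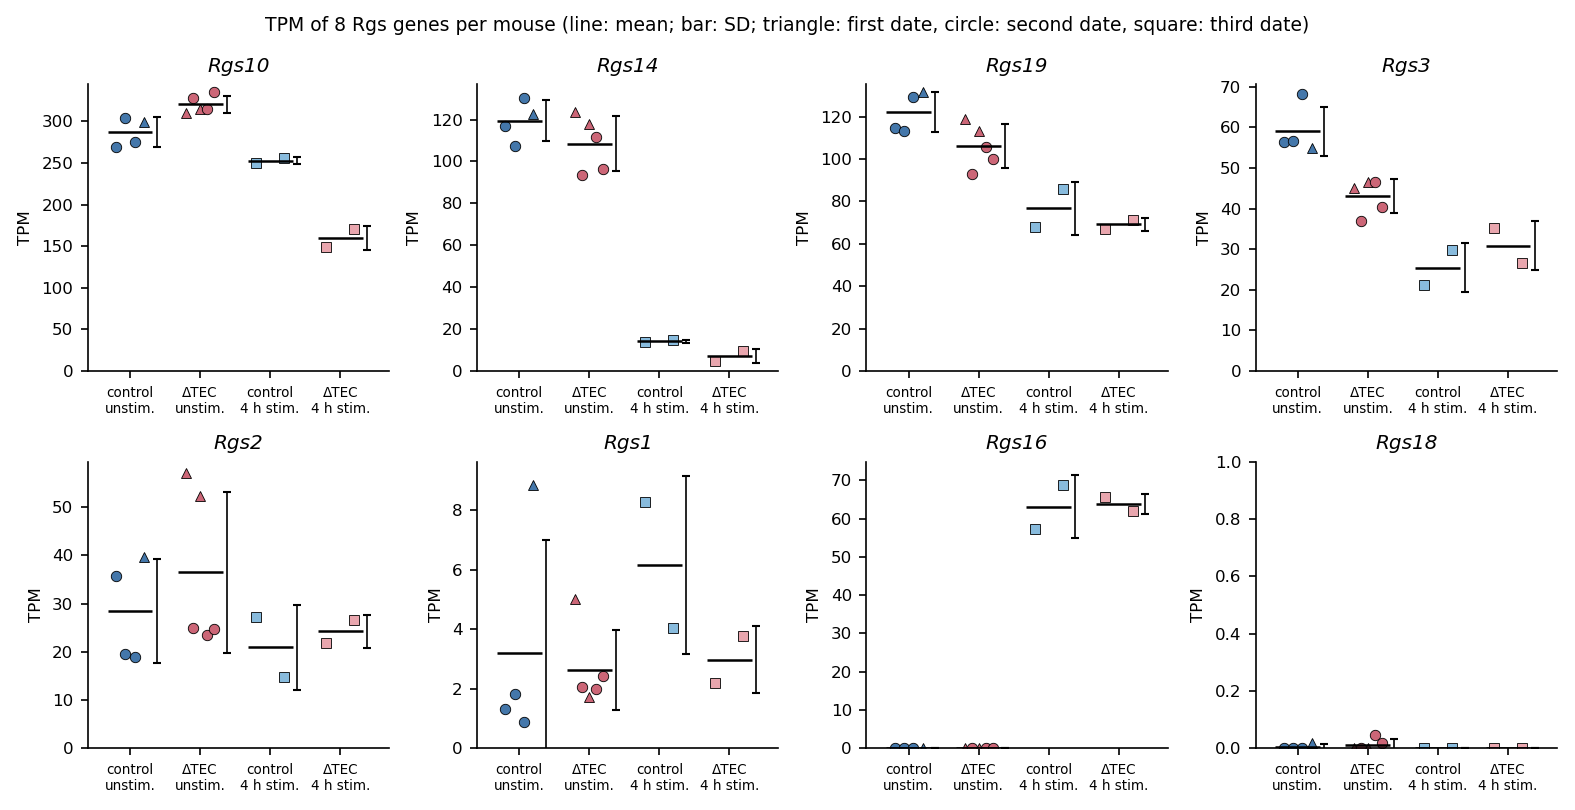
TPM of the 8 Rgs genes in each mouse, by genotype and stimulation, with a line for the mean and a bar for the SD, and markers for the 3 dates in the file names. Rgs16 is near 0 in 9 unstimulated mice and 57.4 to 68.9 TPM in 4 stimulated mice, Rgs14 falls in both genotypes, and the 3 highest Rgs2 values carry the first date.

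Rgs2, which prefers Gαq, and Rgs1, a regulator of chemokine receptor signalling in lymphocytes, had higher fitted levels at the first than at the second date of the unstimulated libraries. They lie at chr1:143999338-144004161 and chr1:144242296-144249242, both on the minus strand. Rgs2 had 57.2 and 52.2 TPM in CtslΔTEC mice 1 and 3 and 39.6 TPM in control mouse 4, the 3 mice of the first date. In the 6 unstimulated mice of the second date it had 24.9, 23.5 and 24.8 TPM (CtslΔTEC mice 2, 4 and 5) and 35.8, 19.5 and 19.0 TPM (control mice 1 to 3). All 3 mice of the first date thus lay above all 6 of the second. With genotype in the model, Rgs2 was 1.79-fold and Rgs1 2.30-fold higher at the first date. For Rgs1, CtslΔTEC mouse 3 of the first date had 1.71 TPM, within the range of the second date. This fit was chosen after the values were seen, so its folds are a description. Of 13152 genes, 6.97% were called for this term. The same fit gave folds of 1.03 for Rgs3, 1.02 for Rgs10, 1.12 for Rgs14 and 1.11 for Rgs19. Summed erythroid markers were 318 to 771 TPM at the first date and 160 to 313 TPM at the second, and their part in the Rgs2 values was not tested. Stimulated mice had 21.8 and 26.6 TPM of Rgs2 (CtslΔTEC) and 27.1 and 14.7 TPM (controls), within the unstimulated range apart from the lowest value.

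Rgs1 had 8.83 TPM in control mouse 4 and 5.00 TPM in CtslΔTEC mouse 1, while the other 7 unstimulated mice had 0.897 to 2.44 TPM. Summed activation markers were also highest in control mouse 4 (431 TPM) and CtslΔTEC mouse 1 (336 TPM). The other 7 mice had 198 to 254 TPM of them, and their part in the Rgs1 and Rgs2 values was not tested. After stimulation Rgs1 had 8.26 and 4.04 TPM in control and 2.18 and 3.78 TPM in CtslΔTEC mice. The log2 difference after stimulation was 0.85 ± 0.58 in control and 0.93 ± 0.57 in CtslΔTEC cells, and 1.60 ± 0.39 and 1.28 ± 0.40 without the 3 mice of the first date. Rgs2 was 0.68 ± 0.36 lower on the log2 scale after stimulation in control cells and 0.59 ± 0.34 lower in CtslΔTEC cells. The values were -0.82 ± 0.31 and -0.87 ± 0.30 without the high-Trbc2 libraries, and -0.50 ± 0.23 and -0.09 ± 0.22 without the mice of the first date.

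Rgs18, known from platelets and megakaryocytes, was not detectable at this depth beyond 0 to 2 counts in any library. It lies at chr1:144752683-144775435 on the minus strand, and all 4 stimulated libraries had 0 counts. Of the 5 platelet and megakaryocyte markers, 3 or 4 were at 0 in each library.

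Rgs16 and Rgs18 were removed by the filter on low counts in the unstimulated comparison, which left 6 genes, and Rgs18 was removed from the 4-group model, which left 7. An adjusted p under 0.1 was found for 2 of the 6 genes between unstimulated genotypes (Rgs3 and Rgs19, both lower), beside 14.8% of all genes tested. In stimulated cells it was found for 2 of 7 (Rgs10 and Rgs14, both lower in CtslΔTEC), beside 13.3% of all genes. On stimulation of control cells it was found for 4 of 7 (Rgs16 higher, Rgs3, Rgs14 and Rgs19 lower), beside 67.7%. In CtslΔTEC cells it was found for the same 4 genes and Rgs10, beside 71.2%. The difference between the 2 genotype effects was called for 3 of 7 (Rgs10 -0.80 ± 0.15, Rgs14 -0.78 ± 0.24 and Rgs3 0.54 ± 0.16), beside 6.01%. The genotype and stimulation comparisons share libraries, and the genes were chosen on these values, so nothing is read from these counts.

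In TPM, unstimulated genotypes did not overlap for 2 of the 8 genes (Rgs3 and Rgs10), beside 11.5% of all genes tested. Stimulated genotypes of 2 mice each did not overlap for 3 (Rgs1, Rgs10 and Rgs14, all lower in CtslΔTEC), beside 44.8%. Stimulated and unstimulated mice did not overlap for 5 (Rgs16 higher, and Rgs3, Rgs10, Rgs14 and Rgs19 lower), beside 48.5%. In CPM Rgs10 overlapped in that last comparison.

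**Figure D3:**
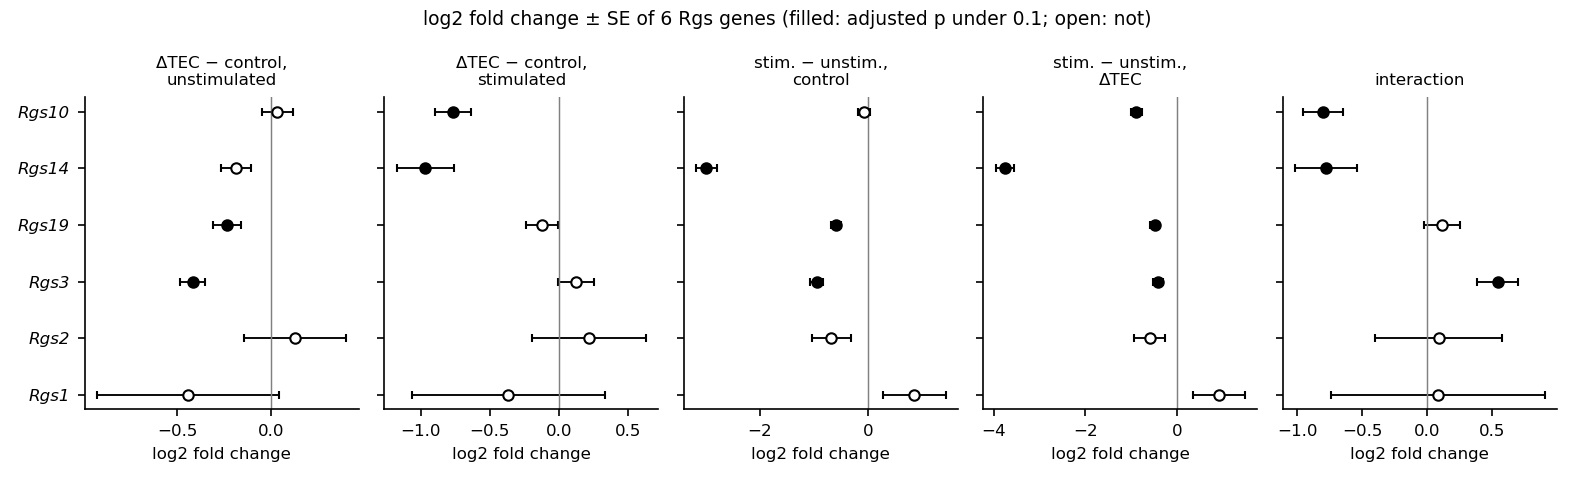
Log2 fold changes with SE of 6 Rgs genes in 5 comparisons by edgeR, filled where the adjusted p was under 0.1 and open elsewhere, with a separate axis range for each comparison. Rgs14 shows the widest change on stimulation (-2.99 and -3.76), and Rgs3 and Rgs10 have interactions of opposite sign (0.54 and -0.80).

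The unstimulated Rgs3 difference was -0.45 ± 0.08 within the second date alone, -0.37 ± 0.08 without the high-Trbc2 libraries and -0.52 ± 0.11 with Y-linked transcripts as a covariate. That covariate rests largely on control mouse 3, the only unstimulated control with high Y-linked transcripts. The same mouse had the highest Rgs3 value (68.1 TPM). Over 21 alternatives the stimulated difference ranged from -0.88 to -0.66 for Rgs10 and from -1.52 to -0.61 for Rgs14. Without the high-Trbc2 libraries the interaction was -0.80 ± 0.18 for Rgs10, 0.50 ± 0.17 for Rgs3 and -0.82 ± 0.26 for Rgs14. The Rgs3 and Rgs14 interactions were 0.34 and -0.42 without CtslΔTEC stimulated mouse 6, and 0.71 and -1.33 without mouse 7.

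How each gene's reads divided among its transcripts was not used to list the genes, and was tested for the 6 genes with more than 1 transcript and more than a few counts. The measure was the percent of the gene's TPM on its most abundant transcript, compared over mice by an exact permutation test, two-sided. Its denominator is the gene total, which was known when the genes were listed. These tests are therefore not fully independent of the listing. Between unstimulated genotypes the smallest p that 126 splits allow is 0.00794. The main Rgs3 transcript, Rgs3-214, held 53.1%, 55.4%, 55.7%, 57.7% and 59.6% of the total in CtslΔTEC mice and 46.0%, 49.0%, 49.8% and 50.8% in controls. The groups did not overlap, and the means of 56.3% ± 2.47 (SD, n = 5) and 48.9% ± 2.08 (SD, n = 4) differed by 7.39 points (exact permutation p = 0.00794, adjusted over 6 genes 0.0476). Rgs10-201 held 80.8% ± 3.40 (SD, n = 5) against 86.5% ± 1.65 (SD, n = 4), 5.77 points lower in CtslΔTEC (exact permutation p = 0.0318, adjusted 0.0952), and on counts the difference was 1.21 points. The remaining 4 genes had adjusted exact permutation p of 0.27 to 0.984.

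The main transcript shares of Rgs3 and Rgs19 differed in opposite directions between stimulated and unstimulated mice. Rgs19-201 held 32.9% ± 3.76 (SD, n = 4) in stimulated and 44.4% ± 3.27 (SD, n = 9) in unstimulated mice, with no overlap (exact permutation p = 0.0014, the smallest that 715 splits allow, adjusted 0.00839). A second coding transcript, Rgs19-202, held 13.6% and 15.4% of the total on average in unstimulated control and CtslΔTEC mice and 25.7% and 27.5% in stimulated mice. Its level was 16.6 and 16.4 TPM before and 19.4 and 19.1 TPM after stimulation, while Rgs19-201 went from 54.8 and 46.6 to 26.2 and 21.6 TPM. Rgs3-214 held 64.0% ± 4.92 (SD, n = 4) in stimulated and 53.0% ± 4.45 (SD, n = 9) in unstimulated mice (exact permutation p = 0.0028, adjusted 0.00839). By genotype, the mean Rgs3-214 share went from 48.9% to 67.5% in control and from 56.3% to 60.5% in CtslΔTEC mice, and the difference between these changes was not tested. Rgs2-202 fell by 10.7 points (exact permutation p = 0.0448, adjusted 0.0895), and on counts it was not past the threshold (adjusted 0.157). For Rgs1, Rgs10 and Rgs14 the adjusted exact permutation p was 0.527, 0.615 and 0.572.

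Most Rgs3 reads fell on transcripts that the annotation classes as retained introns. The 17 annotated Rgs3 transcripts were all detected, and the retained-intron class, led by Rgs3-214 and Rgs3-209, held 75.8% of the TPM in unstimulated controls and 81.7% in unstimulated CtslΔTEC mice on average. After stimulation it held 88.2% and 82.5%. Of the counts it held 87.4% and 89.1% before and 90.8% and 93.4% after stimulation. The order of the stimulated genotypes thus depended on the unit, and the unstimulated ranges of counts overlapped. The coding transcript Rgs3-203, chosen after its values were seen, had 3.43 to 7.20 TPM in unstimulated control and 0.830 to 2.84 TPM in CtslΔTEC mice, which did not overlap. In stimulated mice it was at 0 in both CtslΔTEC mice, and at most 0.689 TPM in controls. The coding transcripts Rgs3-205 and Rgs3-216 had higher means in unstimulated CtslΔTEC mice (1.37 and 0.455 TPM) than in controls (0.693 and 0.279 TPM), with overlap. Rgs1 was read mainly through transcripts classed as targets of nonsense-mediated decay, at 59.2% of its TPM in unstimulated control and 51.8% in CtslΔTEC mice, with retained introns at 30.0% and 45.0%. Its coding transcripts held 10.8% and 3.18% of the TPM, and 25.2% and 14.4% of the counts. Rgs10, Rgs14, Rgs16 and Rgs19 were read mainly through coding transcripts. The levels given above for Rgs3 and Rgs1 are therefore gene totals and not levels of coding mRNA.

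**Figure D4:**
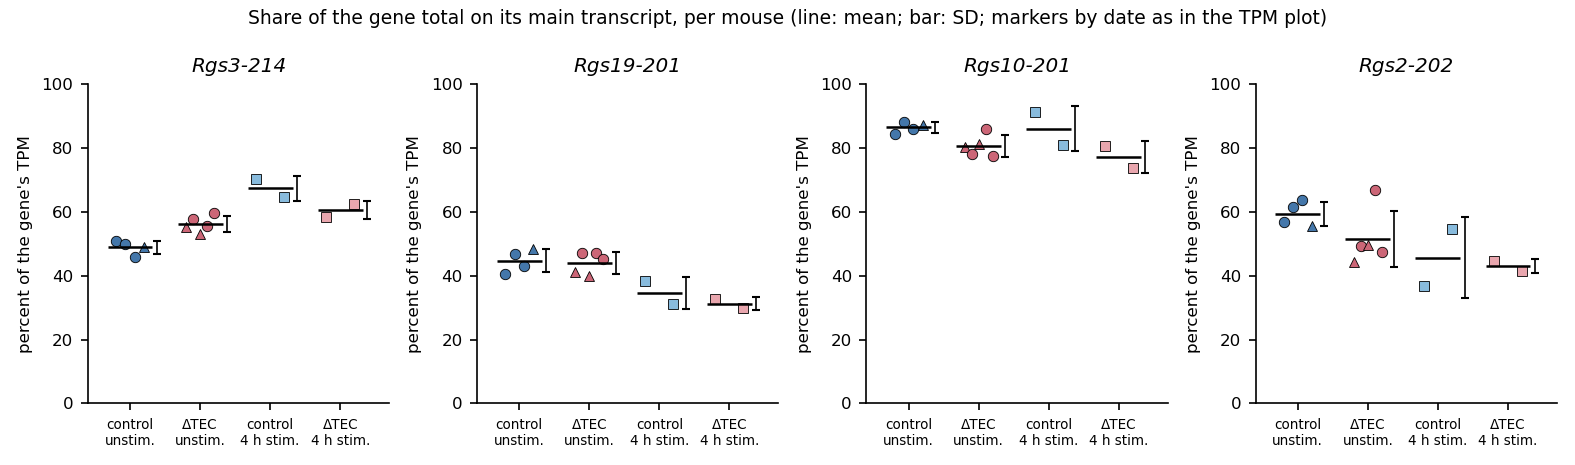
Percent of each gene's TPM on its main transcript in each mouse, by genotype and stimulation, for Rgs3, Rgs19, Rgs10 and Rgs2, with a line for the mean and a bar for the SD. Rgs3-214 is higher in unstimulated CtslΔTEC mice (56.3%) than in controls (48.9%), and Rgs19-201 is lower in stimulated (32.9%) than in unstimulated mice (44.4%).

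Genes outside the list whose log2 CPM followed 6 of the 8 genes most closely over the 13 libraries were taken by Pearson r among 10090 genes, as a description. The libraries form a stimulated and an unstimulated cluster, and r largely follows that split. For Rgs14 they were Camk2g (0.999), Ccdc69 (0.998) and 9930012K11Rik (0.997). Rgs19 was followed by Dctn6 (0.984) and Coro1a (0.976), Rgs3 by Sptan1 (0.981) and Rnf122 (0.975), and Rgs10 by Macrod1 (0.948) and Parp1 (0.947). Rgs2 was followed by Klf6 (0.923) and Rgs1 by Med9 (0.912).

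Of the 13 Rgs genes outside the list, 4 passed the filter in unstimulated cells. Rgs11, a member of the R7 family that pairs with Gβ5, had 25.4 to 34.8 TPM in control and 17.9 to 27.5 TPM in CtslΔTEC mice. It was lower in CtslΔTEC cells (log2 fold change -0.53 ± 0.09, adjusted p = 0.00231, edgeR), although the groups overlapped, and the call was lost with the Y-linked covariate and with limma on TPM. Rgs7 was higher at a very low level (0.91 ± 0.28, adjusted p = 0.0612, edgeR), and Rgs9 and Rgs12 were not called. These 2 calls (50%, beside 14.8% of all genes) became 1 without the high-Trbc2 libraries. They became 1 within the second date, 1 with mouse number as a block and 0 with the Y-linked covariate. On stimulation Rgs11 fell by 2.30 ± 0.18 on the log2 scale in control cells (adjusted p = 2.86e-08, edgeR) and by 2.23 ± 0.18 in CtslΔTEC cells (adjusted p = 3.32e-08), to 3.28 to 6.47 TPM. Rgs9, another R7 member, rose by 1.94 ± 0.51 (adjusted p = 0.00403) and 1.61 ± 0.46 (adjusted p = 0.0064), from 0.0513 to 0.556 TPM before to 0.690 to 1.25 TPM after. Rgs12 was called lower in CtslΔTEC cells alone (-1.61 ± 0.47, adjusted p = 0.00767), a call lost without CtslΔTEC stimulated mouse 7, and a direction that reversed with limma on log2(TPM + 1). Between stimulated genotypes 0 of 5 other Rgs genes were called by edgeR or by DESeq2, beside 13.3% of all genes by edgeR. By edgeR, 1 of the 5 had an unadjusted p under 0.05.

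Partners of RGS proteins were grouped in 6 lists, also made with earlier results of these data known, and counts are set beside the share of all genes called. Genes named from these lists were picked among those past the threshold with the largest changes, so their p-values are a description. Of the 13 proteins with an RGS-homology domain outside the Rgs family, 9 fell on stimulation in control cells and none rose (69.2% called, beside 67.7%). They included Axin2, a Wnt pathway scaffold (-3.35 ± 0.19, adjusted p = 9.48e-10, edgeR), and the receptor kinase Grk2 (-1.75 ± 0.10, adjusted p = 1.86e-09). In CtslΔTEC cells 9 fell and 1 rose (76.9%, beside 71.2%). Between genotypes, 1 of 13 was called in unstimulated (7.69%, beside 14.8%) and 2 of 13 in stimulated cells (15.4%, beside 13.3%). The receptor kinase Grk5 was higher in unstimulated CtslΔTEC cells (0.43 ± 0.14, adjusted p = 0.0826, edgeR), a call lost without the high-Trbc2 libraries, and lower in stimulated CtslΔTEC cells (-1.59 ± 0.40, adjusted p = 0.0222). The second value ranged from -2.04 to -0.81 with each mouse left out and was not called without CtslΔTEC mouse 7 or control mouse 6. Axin2 was lower in stimulated CtslΔTEC cells (-1.05 ± 0.23, adjusted p = 0.00922).

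Among the Gα subunits on which RGS proteins act, 3 of 10 were called in each genotype comparison, beside 14.8% of all genes in unstimulated and 13.3% in stimulated cells. The stimulated count was 0 without CtslΔTEC mouse 7. Gnas, which encodes the Gαs subunit that activates adenylyl cyclase, was lower in CtslΔTEC cells before (-0.45 ± 0.06, adjusted p = 0.000533, edgeR) and after stimulation (-0.40 ± 0.10, adjusted p = 0.022). The second call was lost without CtslΔTEC stimulated mouse 7 or control stimulated mouse 5. Without the high-Trbc2 libraries 1 of the Gα genes was called between unstimulated genotypes, and 1 with the Y-linked covariate. Calls over all genes fell there from 1943 to 898 and 429. Gnai2, the main Gαi subunit of lymphocytes, was lower in stimulated CtslΔTEC cells (-0.41 ± 0.13, adjusted p = 0.0649), a call lost without CtslΔTEC mouse 7, control mouse 5 or control mouse 6, and fell on stimulation by 1.39 ± 0.12 in control (adjusted p = 1.04e-07) and 1.57 ± 0.12 in CtslΔTEC cells (adjusted p = 1.81e-08). On stimulation 3 of 10 Gα genes rose and 4 fell in each genotype, a share of 70% beside the 67.7% and 71.2% of all genes.

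Of the Gβ and Gγ subunits, 3 of 10 were called in unstimulated cells (30%, beside 14.8%) and 1 of 11 in stimulated cells (9.09%, beside 13.3%). The unstimulated count was 1 without the high-Trbc2 libraries and 1 with the Y-linked covariate, settings in which calls over all genes fell as well. Gnb4 was lower in unstimulated CtslΔTEC cells (-0.80 ± 0.08, adjusted p = 6.92e-05, edgeR) and Gng2 in stimulated CtslΔTEC cells (-1.30 ± 0.21, adjusted p = 0.00186). On stimulation 4 rose and 4 fell of 11 in control cells (72.7%, beside 67.7%), and 5 rose and 5 fell in CtslΔTEC cells (90.9%, beside 71.2%). The largest falls in control cells were those of Gngt2 (-2.95 ± 0.22, adjusted p = 1.77e-08, edgeR) and Gng2 (-2.38 ± 0.17, adjusted p = 1.37e-08).

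Among 23 receptors tested in unstimulated cells, 9 were lower and 2 higher in CtslΔTEC mice (47.8%, beside 14.8%). Without the high-Trbc2 libraries 8 were called, and 8 with the Y-linked covariate, while calls over all genes fell from 1943 to 898 and 429. The chemokine receptor Ccr8 had a mean of 8.80 TPM in control and 0.177 TPM in CtslΔTEC mice (log2 fold change -5.65 ± 0.44, adjusted p = 1.46e-05, edgeR), and the prostacyclin receptor Ptgir 24.8 against 2.92 TPM (-3.15 ± 0.16, adjusted p = 4.37e-07). In stimulated cells 8 of 24 were lower and 1 higher (37.5%, beside 13.3%), with Ccr8 at -2.62 ± 0.39 (adjusted p = 0.000945) and Ptgir at -2.02 ± 0.23 (adjusted p = 0.00017). On stimulation of control cells 12 receptors rose and 7 fell (79.2%, beside 67.7%). Cxcr3 went from a mean of 0 to 9.38 TPM, and the prostaglandin E2 receptor Ptger2 rose by 5.91 ± 0.33 (adjusted p = 9.5e-10). In CtslΔTEC cells 14 rose and 8 fell (91.7%, beside 71.2%).

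Effectors of G proteins mostly fell on stimulation, 10 of 12 in each genotype with 1 rise, beside 34.8% and 38.2% of all genes called lower. In control cells these included the adenylyl cyclases Adcy7 (-3.04 ± 0.10, adjusted p = 5.65e-12, edgeR) and Adcy6 (-2.86 ± 0.17, adjusted p = 2.21e-09) and the Gβγ-activated Rac exchange factor Prex1 (-2.86 ± 0.10, adjusted p = 1.2e-11). In stimulated cells the Gβγ-regulated PI3-kinase subunits Pik3r5 (-0.79 ± 0.12, adjusted p = 0.00119) and Pik3cg (-0.73 ± 0.17, adjusted p = 0.0138) were lower in CtslΔTEC than in control cells, the second call being lost without CtslΔTEC mouse 6. In all 4 of 12 effectors were lower and 1 higher (41.7%, beside 13.3%). Of 8 arrestins and other modulators, 5 fell and 2 rose on stimulation in each genotype (87.5%, beside 67.7% and 71.2%). Gpsm3, a GoLoco protein, and the arrestin Arrb1 were lower in stimulated CtslΔTEC cells (-0.82 ± 0.14, adjusted p = 0.00296, and -0.73 ± 0.14, adjusted p = 0.00601, edgeR). In unstimulated cells 0 of 8 were called by edgeR or DESeq2, beside 14.8% of all genes by edgeR. By edgeR, 1 of the 8 had an unadjusted p under 0.05.

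**Figure D5:**
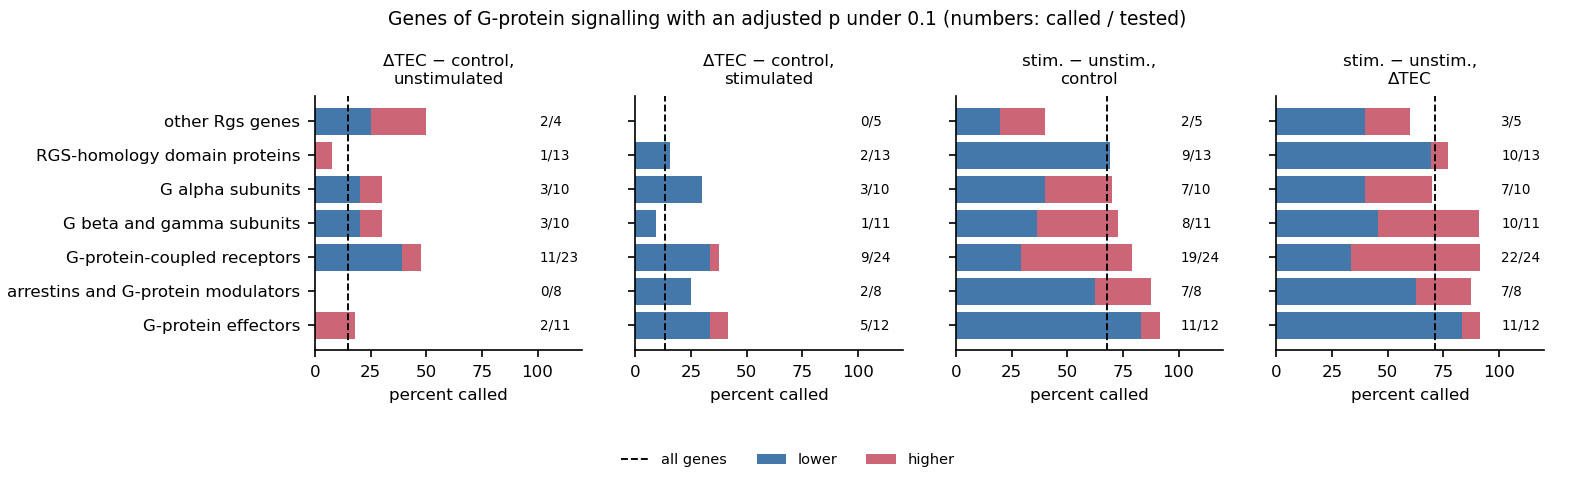
Percent of tested genes with an adjusted p under 0.1 (edgeR) in 7 lists of G-protein signalling, lower (blue) and higher (red), in 4 comparisons, with the count called and tested beside each bar and a dashed line for all genes. Receptors are called in 11 of 23 and 9 of 24 cases between genotypes, beside 14.8% and 13.3% of all genes, and effectors fall in 10 of 12 cases on stimulation.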

How the data were processed

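RNA of 13 libraries, 1 per mouse, was analysed. The labels call the RNA polyadenylated and the study describes rRNA depletion, which was not settled here. The authors quantified transcripts with kallisto 0.48 and Ensembl release 106 and deposited an estimated count and a TPM value for each transcript, without pooling. TPM values are normalized for transcript length and library total, whereas the deposited estimated counts are not normalized. The 8 genes and all gene lists were chosen with earlier results of these data known.

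Of 117497 transcripts, 116397 were paired with a gene through GENCODE M21 (GRCm38), which also gives the coordinates and is older than the authors' annotation. The 1100 others held at most 0.461% of counts. Counts and TPM were summed to genes and counts rounded. Reads shared by overlapping transcripts are split by kallisto's model (Rgs19-206 and Rgs19-212 have equal values). Genes annotated over Rgs3, Rgs10 and Rgs16 on either strand were not analysed here, and reads from them cannot be told apart without strand.

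Genes kept by filterByExpr were compared with edgeR 4.0.16 (R 4.3.3) by the quasi-likelihood test after TMM, with Benjamini-Hochberg adjustment over all genes tested and a threshold of 0.1, on 9 libraries (unstimulated genotypes) or in a 4-group model of all 13. Alternatives were RLE normalization, no filter, a threshold of 0.05, DESeq2 1.42.0, limma 3.58.1 on log2(TPM + 1), date, mouse number, a Y-linked covariate, and each library left out. Exclusion of 3 high-Trbc2 libraries (over 10000 TPM), exclusion of the first date and the date term were added after seeing the data. Named genes of a list are at most the 3 past the threshold with the largest change and a mean log2 CPM of at least 1, besides other Rgs genes tested and the 3 genes most like each member. Scripts were tested on simulated data. No 2 libraries agreed within counting error. Nothing says whether mice shared a litter or a sort, so p-values measure the spread between these mice. In the 4-group model all groups share 1 estimate of the spread per gene. SEs and p-values between stimulated genotypes, of 2 mice each, therefore rest largely on the spread of the unstimulated mice of other dates.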

Additional observations from a re-analysis of the deposited data

Results flagged for a closer look

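Among 26 groups of 4 or 5 unstimulated mice, 1 gene each, 6 held a mouse far from the others by Dixon's criterion. For normally spread values chance gives about 1 in 20, a rate that does not hold for genes near 0 counts. Rgs1 stood at 8.83 TPM in control mouse 4 and at 5.00 TPM in CtslΔTEC mouse 1, both of the first date. Rgs3 stood at 68.1 TPM in control mouse 3, against 55.0 to 56.7 TPM in the other controls, on the side away from the CtslΔTEC mice. Rgs12 was lowest in control mouse 4 at 0.687 TPM. The values of Rgs16 in CtslΔTEC mouse 1 (0.0323 TPM, 2 counts) and of Rgs18 in control mouse 4 (0.0196 TPM, 1 count) rest on too few counts to read. All other mice of both groups had 0 counts, so any value above 0 would have been flagged.

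The genotype difference changed between unstimulated and stimulated cells by the interaction term of edgeR for 3 of the 7 Rgs genes tested, beside 6.01% of all genes, by -0.80 for Rgs10, -0.78 for Rgs14 and 0.54 for Rgs3 on the log2 scale. The genes were listed with these values known, and the term was past the threshold in 4 of 20 alternatives for Rgs14 and in 13 of 20 for Rgs3. Among partners of RGS proteins it changed by 3.02 for Ccr8 and 1.13 for Ptgir, whose deficit in CtslΔTEC cells was smaller after stimulation on the log2 scale. In TPM the Ccr8 means were 8.80 in control and 0.177, near the floor, in CtslΔTEC mice before stimulation. After stimulation they were 116 and 18.6 TPM, a wider gap in TPM. The genotype difference changed by -2.02 for Grk5, -1.52 for Gnb5, -1.19 for Gng2, -0.92 for Pik3r5, -0.73 for Gpsm3, -0.53 for Adcy7 and -0.52 for Adcy3. Each of these changes was towards lower values in stimulated CtslΔTEC cells. Gnb4 changed by 0.64, from lower in unstimulated CtslΔTEC cells to no call after stimulation. Among these partners each call except that of Pik3r5 was lost under 1 or more alternatives. Stimulated groups held 2 mice each.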

How the results depend on the processing

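The 1943 calls between unstimulated genotypes became 1051 with mouse number as a replicate block, 429 with the Y-linked covariate and 898 without the 3 high-Trbc2 mice. The 2 Rgs genes called there became 1 (Rgs3) under these 3 settings, at a threshold of 0.05 and with limma on TPM, and 1 to 3 when each mouse was left out. Mouse numbers do not pair the samples (correlations of deviations -0.16, 0.35, -0.10 and -0.14), and the block is reported only as a setting. The 1898 calls between stimulated genotypes became 1127 with the 4 stimulated libraries alone and 945 to 2235 with each mouse left out (945 without CtslΔTEC mouse 6, 1254 without mouse 7 and 966 without control mouse 5). The 856 interaction calls became 471 at a threshold of 0.05, 340 without the high-Trbc2 mice and 334 to 1227 with each mouse left out (334 without CtslΔTEC mouse 6 and 340 without control mouse 5). The 3 Rgs genes called there became 1 (Rgs10) at 0.05 and without the high-Trbc2 mice, and 1 to 3 with each mouse left out. Of the main transcript shares, the 2 genes called between unstimulated genotypes became 0 within the second date and 0 to 3 with each mouse left out, where fewer splits limit the smallest p. Rgs12 on stimulation of CtslΔTEC cells reversed with limma on log2(TPM + 1), to 0.16. The other causes were not tested. In all, 189 further summary values stayed within 1.5 times the reported count. Among the other values under these settings, 2736 were rated the same, 142 moved, 178 weaker, 1 stronger and 1 reversed. Depth leaves Rgs18 and unstimulated Rgs16 at 0 to 4 counts per library.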
